A study of Mus musculus with 2 samples.

Results

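The mitochondrial genome of the mouse is a small circle that carries 13 protein-coding genes, 2 ribosomal RNA (rRNA) genes and 22 transfer RNA (tRNA) genes. All 37 were found among the 24034 genes of the deposited table as the rows whose symbol starts with mt-, and they were sorted by symbol into protein-coding, rRNA and tRNA genes. Their levels were compared between 2 libraries of RAW264.7, a macrophage line of the mouse. The library labelled SFRS8 siRNA (SFRS8-labelled in the following) was set against the negative control. Both titles end in 5d, with no zero time stated. SFRS8 was the earlier symbol of Sfswap, a splicing regulator. The control's title reads WT while its treatment reads negative control, and whether it received a non-targeting siRNA is not stated. Both libraries were made from poly(A)-selected RNA of cells kept in the same serum-containing medium. Each group has 1 library, which allows no test of the treatment, and every difference below describes these 2 libraries.

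Both strands of the mitochondrial genome are transcribed into long precursors that span many genes. Most mRNAs and rRNAs in these precursors are separated by tRNAs, and cutting at the tRNA ends by mitochondrial RNase P and by the nuclease Elac2 releases them. The proteins are subunits of respiratory complexes I, III, IV and V, the rRNAs build the mitochondrial ribosome, and the tRNAs serve mitochondrial translation. The mRNAs and rRNAs receive short A tails and the tRNAs a CCA end, while in human cells the mRNA of ND6 lacks a poly(A) tail. Levels in a poly(A)-selected library therefore cover the part of these RNAs that was retained by oligo-dT.

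The largest listed differences between the libraries were those of tRNA genes, and the sequences of the 5 that passed the limit of size are shown first. A gene passed when log2(FPKM + 1) differed by at least 2-fold between the libraries and it averaged 1 FPKM or more (fragments normalised for transcript length and sequencing depth). The sequences are those of GENCODE vM21 (GRCm38), 5′ to 3′, with the anticodon in capitals. A script located each anticodon in a loop of 7 bases closed by a stem of 5 bases, of which at least 4 had to pair. The first 3 tRNAs are immediate neighbours on the plus strand between mt-Nd4 and mt-Nd5, where they fill chrM:11546-11741, 196 bases. They are mt-Th (histidine, chrM:11546-11612), mt-Ts2 (serine, chrM:11613-11671) and mt-Tl2 (leucine, chrM:11671-11741).
mt-Th: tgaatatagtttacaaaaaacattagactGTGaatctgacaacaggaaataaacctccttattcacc
mt-Ts2: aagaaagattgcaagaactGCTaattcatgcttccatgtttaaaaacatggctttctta
mt-Tl2: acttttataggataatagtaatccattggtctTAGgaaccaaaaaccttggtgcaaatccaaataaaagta
The remaining tRNAs, also on the plus strand, flank mt-Nd3, namely mt-Tg (glycine, chrM:9391-9458) upstream and mt-Tr (arginine, chrM:9808-9875) downstream. They reached the mean of 1 FPKM only through the control library. Their counts were 4 (mt-Tg) and 3 (mt-Tr) in the SFRS8-labelled library, against 16 for each in the control library. Limits of counting error on each ratio of counts, 0.0050 to 2.50, held 1. These limits assume about 4 counts per read pair. A pair that only partly covers a short gene adds fewer, so the limits can be too wide and do not decide whether these tRNAs differed.
mt-Tg: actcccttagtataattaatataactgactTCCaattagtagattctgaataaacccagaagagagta
mt-Tr: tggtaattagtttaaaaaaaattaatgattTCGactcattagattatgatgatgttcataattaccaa

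Total deposited counts were 55411201 for the SFRS8-labelled and 54847367 for the control library. Sfswap itself was not lower in the SFRS8-labelled library, at 3.38 FPKM against 2.92 FPKM in the control library, so every direction is that of a library's label and not of a measured loss of Sfswap. The 10 macrophage markers were present in both libraries, 4 of them higher and 6 lower in the SFRS8-labelled library, with summed counts, mostly of Lyz2, of 1358870 in the SFRS8-labelled and 1506030 in the control library. Of 19 heart muscle markers all were higher in the SFRS8-labelled library, with summed counts of 16104 against 1224 in the control library, where 7 of them, Actc1, Myl2 and Myl3 among these, were at 0. Their FPKM ranged from 0.023 to 21.9 in the SFRS8-labelled and from 0 to 10.2 in the control library. Cox7a1, the highest of them in the control library, differed little, at 11.4 against 10.2 FPKM in the control. Red blood cell markers held 423 counts in the SFRS8-labelled and 6 in the control library, with 5 of 5 found markers higher. Fibroblast markers held 323 counts in the SFRS8-labelled and 16 in the control library, with 4 of 6 higher. Of the fibroblast markers not higher, Pdgfra had 11 counts against 12 in the control and Lum was at 0 in both libraries. Over all genes averaging 1 FPKM or more, 66.9% were higher in the SFRS8-labelled library. The fibroblast markers were all under that minimum, at no more than 0.25 FPKM, so their share is not set against like genes. Heart muscle is rich in mitochondria. Where the reads of these markers came from, and the part their source had in the values below, was not tested. In bulk samples such as these, fewer cells of a type and less RNA per cell cannot be told apart.

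As a whole, the mitochondrial genome had nearly the same weight in both libraries. Its 37 genes held 5.56% of summed FPKM in the SFRS8-labelled and 5.18% in the control library, and 3.01% of all counts in the SFRS8-labelled and 2.95% in the control library. The ratio of their counts, SFRS8-labelled over control and each scaled to the library total, was 1.02, with 95% exact limits of 1.01 to 1.02. Such limits, here and below, cover counting error only and not the spread between cultures or libraries, because each group has 1 library. PCR duplicates of 1 molecule are not recognised without molecular identifiers, so the limits can be too narrow even for counting error. Their width also assumes about 4 counts per read pair. Within this nearly equal sum the classes differed, with protein-coding genes slightly higher, both rRNAs lower, and a few tRNAs much lower in the SFRS8-labelled library. The protein-coding genes held 23140 summed FPKM in the SFRS8-labelled and 21820 in the control library. The 2 rRNAs held 943 against 1315 FPKM in the control, and the 22 tRNAs 1275 against 1290 FPKM in the control.

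**Figure D1:**
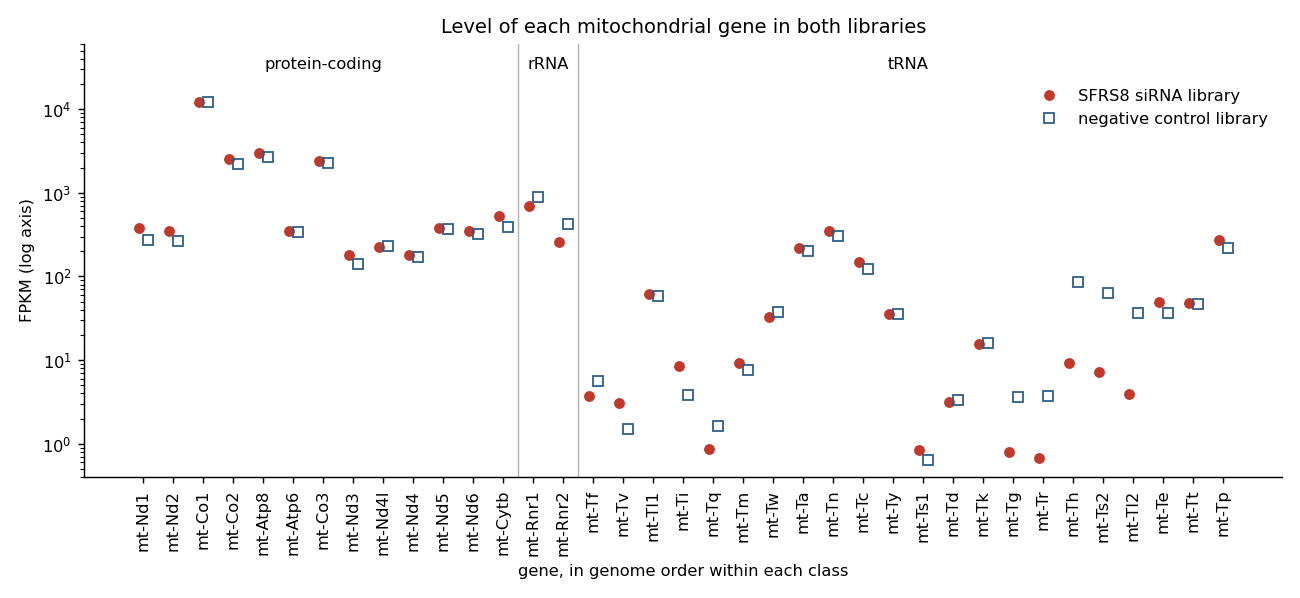
FPKM (log axis) of the 37 mitochondrial genes in the SFRS8 siRNA library (filled circles) and the negative control library (open squares), by class and in genome order within each class. mt-Co1 stands highest, at 12313 FPKM in the SFRS8-labelled and 12190 FPKM in the control library, and mt-Th, mt-Ts2 and mt-Tl2 are the tRNAs with the widest gaps between the libraries among those above 10 FPKM in the control.

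Among the protein-coding genes, 12 of 13 were higher in the SFRS8-labelled library, but none reached 2-fold, and their median was close to that of all genes. The median difference of log2(FPKM + 1) was 0.099, with a range of -0.026 to 0.46, beside a median of 0.11 over the 10214 genes that averaged 1 FPKM or more, of which 66.9% were above 0 and 33.1% below. At 2-fold, 1.18% of those genes were higher and 0.783% lower. The interval of the ratio of counts lay above 1 for 10 of the 13 genes and below 1 for none, against 39.4% and 12.9% of all genes. The mitochondrial protein-coding genes are poor in G and C, with 31.9% to 41.1% GC, and the 666 other genes in that GC range had a median difference of 0.36, with 93.5% above 0. After adjustment for GC content the median of the 13 genes was -0.17, below that of all genes and opposite in sign, and the part of GC content in these values was not tested further.

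The 7 genes of complex I, the NADH dehydrogenase that feeds electrons into the chain, split into a higher and a flat set. mt-Nd1 stood at 377 FPKM in the SFRS8-labelled and 273 FPKM in the control library, resting on 22140 and 15875 counts, a ratio of counts of 1.38 (1.32 to 1.44). mt-Nd2 stood at 348 against 268 FPKM in the control, with a ratio of 1.297 (1.25 to 1.35). mt-Nd3, the shortest subunit gene after mt-Nd4l, stood at 179 against 140 FPKM in the control, with a ratio of 1.28 (1.16 to 1.41). These 3 were higher in the SFRS8-labelled library by about the amount seen in other GC-poor genes, whereas the following 4 differed by less than 0.1 on the log2 scale. mt-Nd5 stood at 381 against 373 FPKM in the control, mt-Nd4 at 181 against 169 FPKM in the control, and mt-Nd4l at 225 against 229 FPKM in the control, the one protein-coding gene that was lower. The intervals of mt-Nd5 (0.996 to 1.05) and mt-Nd4l (0.899 to 1.07) held a ratio of 1. mt-Nd6, the protein-coding gene annotated on the minus strand, stood at 346 against 322 FPKM in the control, close to its opposite-strand neighbour mt-Nd5, with which it shares 14 bases. The strandedness of the libraries is not given in the sources used here, so reads of mt-Nd6 and of transcripts from the other strand cannot be told apart.

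mt-Cytb, the cytochrome b of complex III and the last protein-coding gene of the plus strand, was the other protein-coding gene besides mt-Nd1 that differed by over 0.4. It stood at 533 FPKM in the SFRS8-labelled and 395 FPKM in the control library, resting on 37377 and 27439 counts, a ratio of 1.35 (1.31 to 1.39). The larger differences thus stood at separate places of the genome, with mt-Nd1 and mt-Nd2 behind the rRNAs, mt-Nd3 in the middle and mt-Cytb at the end.

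The 3 genes of complex IV, cytochrome c oxidase, were the most abundant set per length. mt-Co1, its catalytic subunit, alone held 48.6% of the mitochondrial FPKM in the SFRS8-labelled and 49.9% in the control library, at 12313 against 12190 FPKM in the control. Its ratio of counts was 1.01 (1.004 to 1.01). mt-Co2, which receives electrons from cytochrome c, stood at 2515 against 2180 FPKM in the control (1.15, 1.13 to 1.17), and mt-Co3 at 2365 against 2268 FPKM in the control (1.04, 1.02 to 1.06). Without mt-Co1 the log2 ratio of summed mitochondrial FPKM was 0.092, against 0.054 with it.

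The 2 genes of complex V, the ATP synthase, are read from a shared mRNA and overlap by 43 bases, yet their listed levels were far apart. mt-Atp8 stood at 3027 FPKM in the SFRS8-labelled and 2679 FPKM in the control library, while mt-Atp6 stood at 351 FPKM in the SFRS8-labelled and 336 FPKM in the control library. mt-Atp8 was thus at 8.61 times the FPKM of mt-Atp6 in the SFRS8-labelled library and 7.98 times in the control library. The other pair on a shared mRNA, mt-Nd4l and mt-Nd4, overlaps by 7 bases and was closer, at a ratio of 1.25 in the SFRS8-labelled and 1.36 in the control library. The FPKM of overlapping or copied genes depend on how reads were divided between them, which is taken up with the nuclear copies.

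Both rRNAs were lower in the SFRS8-labelled library, whereas 11 of the 12 protein-coding genes that follow them on the plus strand were higher and mt-Nd4l was slightly lower. mt-Rnr1, the rRNA of the small ribosomal subunit (chrM:70-1024), stood at 688 FPKM in the SFRS8-labelled and 895 FPKM in the control library. Its counts were 40292 in the SFRS8-labelled and 51963 in the control library, a ratio of 0.768 (0.748 to 0.788). mt-Rnr2, the rRNA of the large subunit (chrM:1094-2675), stood at 256 against 419 FPKM in the control, from 24801 and 40311 counts, a ratio of 0.609 (0.590 to 0.629). Differences were -0.38 and -0.71, neither past 2-fold. Per length, mt-Rnr1 exceeded mt-Rnr2 by 2.69 times in the SFRS8-labelled and 2.14 times in the control library. Summed over both genes, rRNA amounted to 4.08% of the FPKM of the 13 protein-coding genes in the SFRS8-labelled library, against 6.03% in the control library. Mature rRNAs carry at most short A tails, so these values describe the rRNA that passed the poly(A) selection. The rRNAs have 35.4% and 35.8% GC, and after adjustment for GC content both stood lower still, at -0.64 for mt-Rnr1 and -0.98 for mt-Rnr2, while the median of the 12 plus-strand protein-coding genes turned to -0.14, the same sign as the rRNAs.

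**Figure D2:**
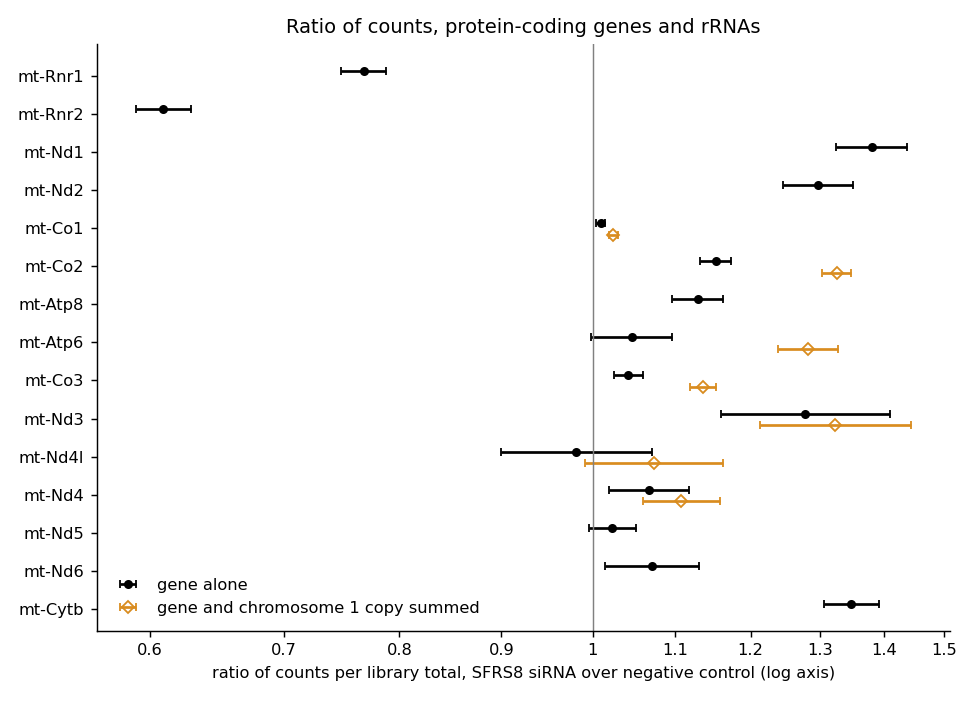
Ratio of counts per library total, SFRS8 siRNA over negative control (log axis), for the 13 protein-coding genes and 2 rRNAs in genome order. Circles are the gene alone, diamonds the gene summed with its chromosome 1 copy, and bars are 95% exact limits of counting error. mt-Rnr2 is lowest at 0.609 and mt-Nd1 is the highest of the circles at 1.38.

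The tRNA genes held few reads and had the widest range of differences. Together they had 5390 counts in the SFRS8-labelled and 5368 in the control library, about 0.01% of all counts in both. With genes of 59 to 75 bases and an average insert of 300 bp, a read pair placed on a tRNA also covered flanking sequence. Levels listed for a tRNA gene are therefore not those of mature tRNA alone. Of 22 tRNA genes, 21 passed the minimum mean of 1 FPKM. Among these 21, 10 were higher and 11 lower in the SFRS8-labelled library, with a median difference of -0.014, beside 66.9% of all genes higher, 33.1% lower and a median of 0.11. Past 2-fold, 5 were lower (0.783% of all genes were) and none higher (1.18% of all genes were). Of these 5, mt-Tg and mt-Tr reached the minimum mean only through the control library, where they are high, so their passing says nothing beyond their counts, and mt-Th, mt-Ts2 and mt-Tl2 exceeded 1 FPKM in both libraries. The counting interval lay below 1 for 3 of the 22, above 1 for 1 and held 1 for the other 18, of which 9 had under 40 counts in both libraries. Of all genes averaging 1 FPKM or more the interval lay below 1 for 12.9% and above 1 for 39.4%, so the share of tRNA genes below 1 was near that of all genes.

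The 3 adjacent tRNAs between mt-Nd4 and mt-Nd5 differed by nearly the same factor. mt-Th stood at 9.34 FPKM in the SFRS8-labelled and 85.1 FPKM in the control library, resting on 39 and 347 counts, 9.10-fold lower. mt-Ts2 stood at 7.12 against 63.7 FPKM in the control, from 26 and 229 counts, 8.96-fold lower, and mt-Tl2 at 3.90 against 36.2 FPKM in the control, from 17 and 157 counts, 9.28-fold lower. Reads that span neighbouring tRNAs count for each of them, so the 3 values are not independent. Summed, the stretch held 82 counts in the SFRS8-labelled and 733 in the control library, a ratio of 0.111 with limits of 0.065 to 0.172. These limits treat the shared reads as separate, which can make them too narrow. They also assume about 4 counts per read pair, which can make them too wide for genes this short. In both libraries the level was highest at mt-Th and lowest at mt-Tl2.

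The genes on either side of this stretch did not share the difference. mt-Nd4, 1 base upstream, had a difference of 0.095 and mt-Nd5, directly downstream, of 0.034. Relative to mt-Nd4, mt-Th was at 5.17% per length in the SFRS8-labelled library, against 50.3% in the control library. Relative to mt-Nd5, mt-Tl2 was at 1.02% in the SFRS8-labelled and 9.71% in the control library. The difference was thus bounded on both sides within the tRNA stretch at the resolution of whole genes. Each library supplied 1 value, so the spread of this stretch between untreated cultures was not measured.

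The pair that flanks mt-Nd3 was also lower, on very few reads. mt-Tg stood at 0.793 FPKM in the SFRS8-labelled and 3.66 FPKM in the control library, resting on 4 and 16 counts, a ratio of 0.247 (0.0050 to 2.50). mt-Tr stood at 0.684 against 3.71 FPKM in the control, from 3 and 16 counts, a ratio of 0.186 (0.0050 to 2.50). Both intervals held 1. They assume about 4 counts per read pair and can be too wide for genes this short, so they do not decide whether these 2 tRNAs differed.

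**Figure D3:**
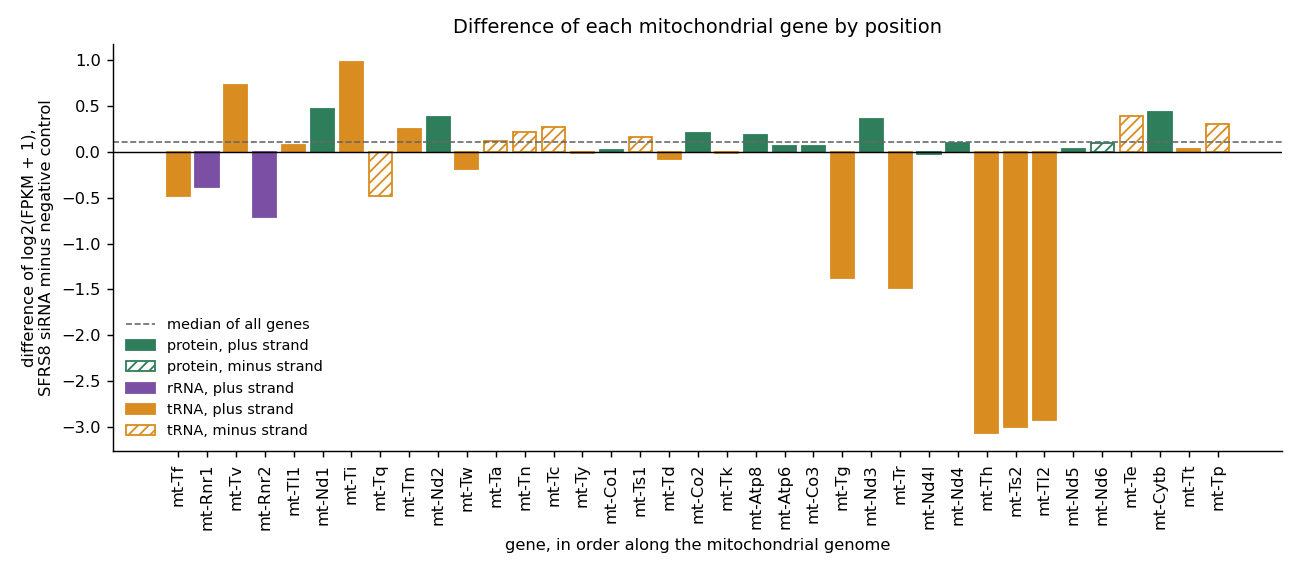
Difference of log2(FPKM + 1), SFRS8 siRNA minus negative control, of the 37 genes in order along the mitochondrial genome, coloured by class, with minus-strand genes hatched and the median of all genes, 0.11, dashed. mt-Th, mt-Ts2 and mt-Tl2 stand together near -3, between mt-Nd4 and mt-Nd5 close to 0.

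The most abundant tRNA genes were on the minus strand and differed little. Levels of mt-Tn (asparagine) were 347 FPKM in the SFRS8-labelled and 300.1 FPKM in the control library, resting on 1512 and 1295 counts. mt-Tp (proline) stood at 271 against 220 FPKM in the control, from 1114 and 896 counts, and its ratio of 1.23 (1.03 to 1.47) was the one tRNA interval above 1. mt-Ta (alanine) stood at 217 against 201 FPKM in the control and mt-Tc (cysteine) at 147 against 122 FPKM in the control. These 4 genes held 76.8% of tRNA counts in the SFRS8-labelled and 65.6% in the control library. mt-Ta, mt-Tn, mt-Tc and mt-Ty (tyrosine, 35.1 against 35.5 FPKM in the control) lie side by side just before mt-Co1, opposite to the precursor from which mt-Co1 is released, and without strand their reads cannot be told apart from it. The sequences of mt-Tn (chrM:5089-5159, minus strand) and mt-Tp (chrM:15356-15422, minus strand) are given for comparison with those of the lower tRNAs, anticodon in capitals.
mt-Tn: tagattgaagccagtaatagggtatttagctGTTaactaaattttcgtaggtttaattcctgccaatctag
mt-Tp: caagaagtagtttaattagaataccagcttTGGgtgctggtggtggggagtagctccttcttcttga

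By strand, the 8 minus-strand tRNA genes summed to 4503 counts in the SFRS8-labelled and 3834 in the control library, a ratio of 1.16 (1.07 to 1.27). The 14 plus-strand tRNA genes summed to 887 counts in the SFRS8-labelled and 1534 in the control library, a ratio of 0.572 (0.483 to 0.677). The stretch from mt-Th to mt-Tl2, with 82 counts against 733 in the control, had a gap of about the same size as the plus-strand gap. Over the 19 tRNA genes outside it, of both strands, the ratio was 1.13 (1.05 to 1.23). That sum was thus slightly higher in the SFRS8-labelled library, as was the sum of the protein-coding genes. Most of its counts lie on the minus strand. Of the 18 genes outside the stretch that averaged 1 FPKM or more, 10 were higher and 8 lower. Their median difference was 0.051, beside 0.11 for all genes, and -0.20 after adjustment for GC content. Neighbouring tRNAs share reads, so the limits of these sums can be too narrow.

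For the other tRNA genes between 15 and 65 FPKM no difference was detectable at this depth. mt-Tl1 (leucine), which links mt-Rnr2 to mt-Nd1, stood at 61.8 FPKM in the SFRS8-labelled and 58.8 FPKM in the control library. While mt-Rnr2 was lower and mt-Nd1 higher in the SFRS8-labelled library, the tRNA between them had a ratio of 1.05 (0.741 to 1.49). mt-Te (glutamate) stood at 48.9 against 37.0 FPKM in the control, a difference of 0.39 from 208 and 156 counts with a ratio of 1.32 (0.855 to 2.05). mt-Tt (threonine) at 47.5 against 46.5 FPKM in the control and mt-Tw (tryptophan) at 32.7 against 37.3 FPKM in the control. mt-Tk (lysine) stood at 15.8 against 15.96 FPKM in the control. All 5 of these intervals held 1.

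The remaining tRNA genes were below 10 FPKM in both libraries and rest on at most 39 counts. mt-Tm (methionine) stood at 9.18 FPKM in the SFRS8-labelled and 7.56 FPKM in the control library, and mt-Ti (isoleucine) at 8.46 against 3.83 FPKM in the control, the largest positive difference of any member (0.97). The counts of mt-Ti were 36 and 17 and its interval, at an assumed 4 counts per read pair, was 0.622 to 9.90 and held 1. mt-Tf (phenylalanine) stood at 3.74 against 5.62 FPKM in the control, mt-Td (aspartate) at 3.13 against 3.37 FPKM in the control and mt-Tv (valine) at 3.11 against 1.49 FPKM in the control. mt-Tq (glutamine) had 4 counts in the SFRS8-labelled and 7 in the control library, and mt-Ts1 (serine), the member under the minimum, had 4 against 3 in the control. mt-Tf, mt-Rnr1, mt-Tv and mt-Rnr2 are consecutive, so mt-Tf and mt-Tv, with few counts in both libraries, lie beside the rRNAs. In the SFRS8-labelled library mt-Tf was lower and mt-Tv higher, each on at most 24 counts, and both intervals held 1. mt-Tl1, which directly follows mt-Rnr2, was more abundant, at 61.8 FPKM in the SFRS8-labelled and 58.8 FPKM in the control library.

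Part of the mitochondrial genome exists as a near-identical copy on chromosome 1, and reads from it can be listed under either place. Comparison of the 37 members with all GENCODE vM21 transcripts (at least 98% identity over at least 60 bases) found 7 pseudogenes, all on the minus strand of chr1:24611535-24616197. They match mt-Co1 (its last 483 bases), mt-Co2, mt-Atp6, mt-Co3, mt-Nd3, mt-Nd4l and mt-Nd4 (its first 876 bases), and 5 of them without a mismatch. The spacing of the copies equals that of chrM:6390-11042, with a single shift of 1 base between the copies of mt-Nd3 and mt-Nd4l, the interval that holds mt-Tr on the mitochondrial genome. mt-Atp8 and 5 tRNA genes lie in the same stretch. The 2 mismatches are A1066T in mt-Co1, in the copy Gm29216, and T3C in mt-Nd3, in the copy Gm28438, with positions counted from the first base of the mitochondrial gene. The sequences around them show how little separates the places, with the differing base in capitals, first the mitochondrial plus strand (chrM:6390-6423 and chrM:9459-9491) and then the minus strand of the copy (chr1:24616155-24616188 and chr1:24613087-24613119).
mt-Co1: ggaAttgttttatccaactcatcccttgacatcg
Gm29216: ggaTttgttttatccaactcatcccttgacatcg
mt-Nd3: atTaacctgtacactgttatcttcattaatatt
Gm28438: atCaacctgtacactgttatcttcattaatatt

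Beside 66.9% of all genes averaging 1 FPKM or more, all 7 copies were higher in the SFRS8-labelled library, and by more than their mitochondrial counterparts. Their summed counts were 116771 in the SFRS8-labelled and 61211 in the control library, a ratio of 1.89 (1.85 to 1.93), while the 7 mitochondrial genes together had a ratio of 1.02 (1.02 to 1.03). Gm29216, the copy of the end of mt-Co1, stood at 1632 FPKM in the SFRS8-labelled and 1035 FPKM in the control library, and Gm28437, the copy of mt-Co3, at 563 against 307 FPKM in the control. Gm10925, the copy of mt-Atp6, stood at 340.0 against 203 FPKM in the control, so it was listed near the level of mt-Atp6 itself. Gm28661, the copy of mt-Co2, differed most, at 543 against 124 FPKM in the control, from 22695 and 5135 counts, a ratio of 4.37 (4.12 to 4.65). It was the one copy past 2-fold, beside 1.18% of all genes, and the other 6 had ratios between 1.53 and 1.83. The other copies, Gm10222 (60.6 against 36.6 FPKM in the control), Gm28438 (48.0 against 31.4 FPKM in the control) and Gm28439 (28.5 against 16.02 FPKM in the control), were less abundant.

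The share of reads listed on the copy was larger in the SFRS8-labelled library for all 7 pairs. For mt-Atp6 the copy held 49.1% of the counts of the pair in the SFRS8-labelled and 37.6% in the control library, and for mt-Co2 it held 17.7% and 5.36%. For mt-Co1, whose copy matches only its end, the shares were 4.05% in the SFRS8-labelled and 2.63% in the control library. Since these sequences hardly differ, the division of reads between a gene and its copy is uncertain. The sum of the pair does not depend on it if each read was listed once. Summed with their copies, mt-Co2 had a ratio of 1.33 (1.303 to 1.35), mt-Atp6 of 1.28 (1.24 to 1.33), mt-Nd3 of 1.32 (1.21 to 1.44) and mt-Co3 of 1.14 (1.12 to 1.15). mt-Nd4 had 1.11 (1.06 to 1.16), mt-Nd4l 1.07 (0.991 to 1.16) and mt-Co1 1.02 (1.02 to 1.03). mt-Atp6 alone had a ratio of 1.05 (0.999 to 1.10), so adding the copy moved it from an interval that held 1 to one above 1. With the copies added, the median log2 ratio of counts over the 13 genes was 0.18.

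**Figure D4:**
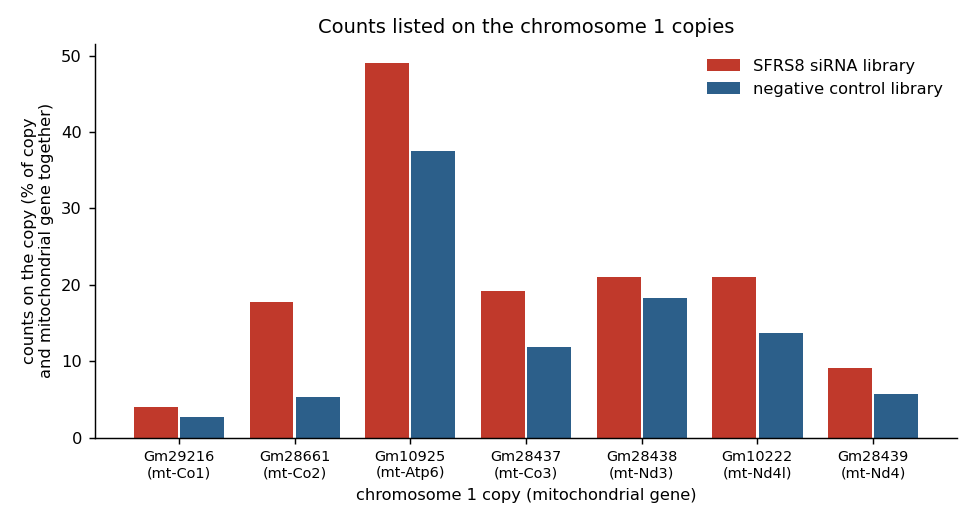
Counts listed on each chromosome 1 copy as a percentage of the counts of the copy and its mitochondrial gene together, in the SFRS8 siRNA library (left bars) and the negative control library (right bars). The share is larger in the SFRS8-labelled library for all 7 pairs, with the copy of mt-Atp6 highest, at 49.1% in the SFRS8-labelled and 37.6% in the control library.

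The 5 protein-coding genes with neither a near-identical copy nor a place in the stretch copied on chromosome 1 are mt-Nd1, mt-Nd2, mt-Nd5, mt-Nd6 and mt-Cytb. Their summed counts had a ratio of 1.20 (1.18 to 1.22) and their median difference was 0.37, against 0.066 for the 7 genes with a near-identical copy. The value of 0.066 rests on the uncertain division of reads. Summed with their copies, mt-Co2, mt-Nd3 and mt-Atp6 had log2 ratios of counts of 0.41, 0.40 and 0.36. The other pairs, those of mt-Co3, mt-Nd4, mt-Nd4l and mt-Co1, had 0.18, 0.15, 0.10 and 0.035. Differences of the 5 genes without a near-identical copy ranged from 0.034 (mt-Nd5) to 0.46 (mt-Nd1). The part of the division of reads in the gap between the 2 sets was not tested. The differences of mt-Nd1, mt-Nd2 and mt-Cytb, of both rRNAs and of the stretch from mt-Th to mt-Tl2 are those of genes outside the copied stretch, while mt-Nd3, with a difference of 0.35, lies within it.

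Nuclear genes that make, cut, modify and degrade mitochondrial RNA were mostly near the level of all genes. The list held 58 names, of which Prorp and 1110008L16Rik are the same gene. All 57 genes were found, and 50 averaged 1 FPKM or more. Of the 50, 38 were higher and 12 lower, beside 66.9% of all genes higher, with a median difference of 0.15 against 0.11 for all genes. Past 2-fold, 1 of the 50 was higher and none lower, beside 1.18% and 0.783% of all genes, so a single call is near the background. It was the gene listed as 1110008L16Rik, which RefSeq names Prorp, the nuclease subunit of mitochondrial RNase P that cuts at the 5′ ends of tRNAs. It stood at 4.88 FPKM in the SFRS8-labelled and 1.86 FPKM in the control library, resting on 1336 and 505 counts, a ratio of 2.62 (2.13 to 3.25). After adjustment for GC content this gene had a difference of 0.88 and was no longer past 2-fold. It overlaps Ppp2r3c on the opposite strand, which stood at 6.93 against 5.09 FPKM in the control.

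The other subunits of mitochondrial RNase P, and Elac2, did not pass 2-fold. Hsd17b10, one of these subunits and the most abundant gene of the list, stood at 89.6 FPKM in the SFRS8-labelled and 92.7 FPKM in the control library. Trmt10c, the methyltransferase subunit, stood at 2.60 against 2.15 FPKM in the control, and Elac2, which cuts at the 3′ ends of tRNAs, at 14.5 against 15.6 FPKM in the control. Ptcd2, an RNA-binding protein linked in mice to maturation of the mt-Cytb transcript, stood at 48.3 against 40.9 FPKM in the control. The processing and tails group as a whole had a median of 0.12 over 14 genes, close to that of all genes.

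Among transcription factors of the mitochondrial genome, Tfb2m and Tfam were higher and the polymerase Polrmt was not. Tfb2m, which opens the promoter for the polymerase, stood at 4.54 FPKM in the SFRS8-labelled and 2.57 FPKM in the control library, a ratio of 1.76 (1.39 to 2.25). Tfam, which packs and activates mitochondrial DNA, stood at 3.76 against 2.55 FPKM in the control (1.48, 1.21 to 1.80). Polrmt stood at 4.89 against 5.21 FPKM in the control and the helicase Twnk at 7.91 against 9.22 FPKM in the control, the lowest difference of the list. Mterf1b, of the termination factor family, stood at 1.21 against 0.503 FPKM in the control, under the minimum mean. Of the 12 genes of the group that averaged 1 FPKM or more, 9 were higher and 3 lower, beside 66.9% of all genes higher. Among all genes the interval lay above 1 for 39.4%. The group had a median of 0.20, and 0.096 after adjustment for GC content, against 0.11 for all genes.

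Of the 6 genes of stability and decay, 5 were higher in the SFRS8-labelled library, beside 66.9% of all genes. Their median was 0.31, and 0.15 after adjustment for GC content, against 0.11 for all genes. Slirp, which with Lrpprc stabilises mitochondrial mRNAs, had 2482 counts in the SFRS8-labelled and 1465 counts in the control library, a ratio of 1.68 (1.47 to 1.91). Lrpprc itself stood at 5.75 against 4.06 FPKM in the control (1.41, 1.26 to 1.58), and Grsf1, an RNA-binding protein of mitochondrial RNA granules, at 30.6 against 22.5 FPKM in the control (1.36, 1.25 to 1.47). The helicase of the decay complex, Supv3l1, stood at 10.0 against 11.2 FPKM in the control. rRNA modification genes had a median of 0.17 over 4 genes and tRNA modification genes of 0.14 over 14 genes, with none past 2-fold. After adjustment for GC content the median of all 50 genes was 0.12, against 0.11 over all genes. Slirp overlaps Snw1 and Alkbh1 on the opposite strand.

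**Figure D5:**
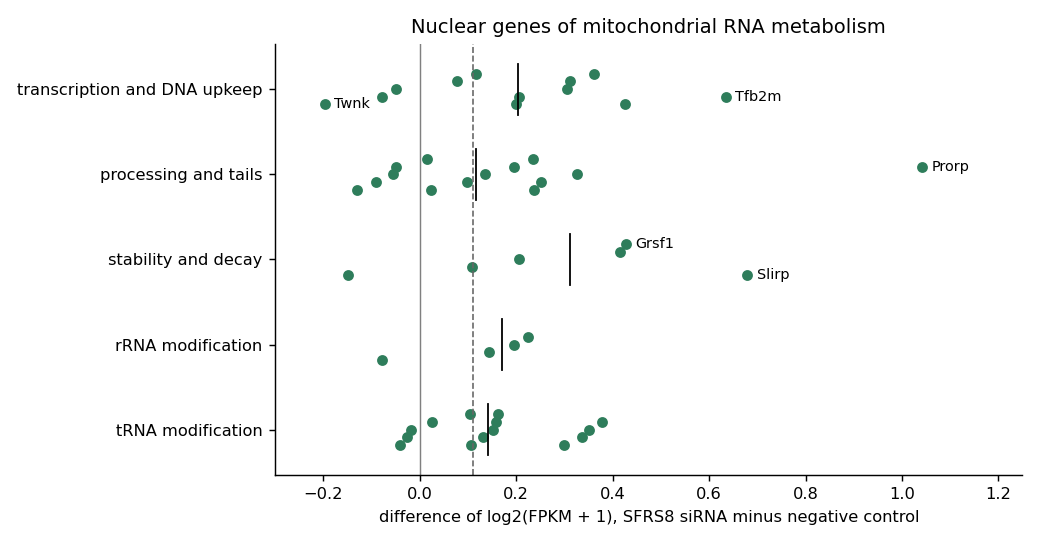
Difference of log2(FPKM + 1), SFRS8 siRNA minus negative control, of the 50 nuclear genes of mitochondrial RNA metabolism that averaged 1 FPKM or more, in 5 groups. Points are genes (offset vertically for legibility), short bars group medians, the dashed line the median of all genes, 0.11, and Prorp stands apart at 1.04.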

How the data were processed

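Per the labels' protocols, poly(A)-selected RNA of RAW264.7 was read from both fragment ends on an Illumina instrument. The treatment label gave the groups, with 1 library each. HISAT2 2.0 and StringTie 1.3.0 were used, per the submitters' processing notes. A build or annotation is not given in the sources used here. GENCODE vM21 (GRCm38) holds all 37 members at identical coordinates. FPKM values, per the file headers, were normalised by the authors for length and library size. The deposited values headed as counts were taken as estimated counts that follow coverage, with about 4 per read pair. Of counts from 1 to 20, 45.1% in the SFRS8-labelled and 42.7% in the control library were multiples of 4. FPKM times length divided by count was nearly constant over the members. A pair that only partly covers a short gene adds fewer counts, so tRNA limits are wide.

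Differences are SFRS8-labelled minus control log2(FPKM + 1), and the pseudocount of 1 understates those of low genes. Ratios of counts have exact Clopper-Pearson limits (95%) on read pairs (counts over 4), given the pair total of both libraries. Copies were found with blastn 2.17.0, and GC content was adjusted by lowess (span 0.3) over the genes averaging 1 FPKM or more, adding back their median. Code was tested on simulated data. Named were all members, the 4 factors with the largest and the 2 with the highest values, and the 4 most abundant copies. Other copies and factors were named for their roles or after their values were seen. Members and lists were chosen with earlier results of these data known. Alternatives were other pseudocounts, minimum levels and fold limits, scaled counts and the GC adjustment. Python 3.11.15, numpy 2.4.6, pandas 2.3.3, scipy 1.17.1 and statsmodels 0.14.6 were used, and 0 columns were left unmatched.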

Additional observations from a re-analysis of the deposited data

How the results depend on the processing

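Under pseudocounts of 0.1 and 5, minimum means of 0 and 5 FPKM and counts scaled to the library total, the medians of the protein-coding genes, rRNAs and nuclear factors kept their direction. Adjustment for GC content gave -0.17 for the protein-coding genes, a reversal, and -0.81 for the rRNAs, against -0.55 without it, and it changed the sign of 12 of 36 single members, none of them among the 5 lower tRNAs. The tRNA median, near 0, changed sign to 0.0085 with no minimum and to 0.071 at a minimum of 5 FPKM. The count of lower tRNAs, 5, was 3 with a pseudocount of 5 and 3 at a minimum of 5 FPKM, where mt-Th, mt-Ts2 and mt-Tl2 were the 3. The log2 ratio of summed mitochondrial FPKM, 0.054, was 0.11 when scaled to the FPKM outside the mitochondrial genome and 0.027 in counts. After the data were seen, it was also computed with the copies (0.13) and without mt-Co1 (0.092), and the protein-coding median with copies added was 0.18. The cause was not tested, apart from fewer genes at higher minimums. No paired analysis was possible because each group has 1 library. Depth limits the 9 tRNA genes with under 40 counts in both libraries.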

Other observations

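Copies of mitochondrial genes on chromosome 2, less similar to the mitochondrial genome and chosen after their values were seen, went the other way from those on chromosome 1. Gm13340, which matches the whole of mt-Co1 at 97.6% identity, stood at 5.97 FPKM in the SFRS8-labelled and 8.77 FPKM in the control library, a ratio of counts of 0.681 (0.547 to 0.849). Gm13341, which matches mt-Co2 at 95.9% identity, had 41 counts in the SFRS8-labelled and 276 in the control library, a ratio of 0.147 (0.066 to 0.280). Gm13339, which matches part of mt-Nd2 at 96.7% identity, had 11 counts against 42 in the control, with limits of 0.053 to 1.15. These copies held under 1% of the counts of their mitochondrial counterparts in both libraries, so they bear little on the sums given above.

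The 5 tRNA genes within the stretch that is copied on chromosome 1, mt-Ts1, mt-Td, mt-Tk, mt-Tg and mt-Tr, held few counts, 88 in the SFRS8-labelled and 114 in the control library. The 17 tRNA genes outside it held 5302 counts in the SFRS8-labelled and 5254 in the control library. No transcript for the tRNA part of the chromosome 1 copy was found among the sequences compared, so counts of these 5 genes could not be summed with a copy.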
